A study of Mus musculus with 12 samples.

Results

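The genes described here encode 9 proteins of peroxisomal fatty acid oxidation, the transporter Abcd3, the carnitine transferase Crot, the oxidase Acox2, the bifunctional enzymes Ehhadh and Hsd17b4, the thiolases Acaa1a and Acaa1b, and the auxiliary enzymes Decr2 and Eci2. They were chosen by symbol, and all 9 were found among the 55487 genes of the deposited tables and had enough counts to be tested. Livers were taken from male mice of 16 to 18 months, with 3 libraries in each of 4 groups. The groups were overnight-fasted Foxo3 knockout mice, overnight-fasted floxed controls, fed knockout mice and fed floxed controls. Knockout mice were homozygous for a floxed Foxo3 allele (Foxo3 flox/flox) and carried Alb-cre, in which the albumin promoter drives the recombinase in hepatocytes, whereas controls were floxed and Cre-negative. Foxo3 in the other cells of the liver is not targeted by this design. Foxo3 is a forkhead transcription factor held out of the nucleus by insulin signalling.

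Peroxisomes shorten very long, branched and dicarboxylic fatty acids and bile acid precursors, which mitochondria handle poorly. A transporter brings the substrate in, an acyl-CoA oxidase makes the first double bond and releases hydrogen peroxide, a bifunctional enzyme adds water and oxidises the product, and a thiolase cleaves off acetyl-CoA. The shortened chains leave as carnitine esters for mitochondria. In rodent liver many of these genes are known targets of the nuclear receptor PPAR alpha, which is activated in fasting.

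Promoter sequences are shown for Crot and Ehhadh, which had the largest estimated fasting changes among the 9 genes. They are also shown for Acaa1a and Acaa1b, a pair of near-identical coding sequence on chromosome 9 that differed in their values. RefSeq windows of 300 bases around the transcription start (build GRCm38.p6) were found for 8 of the 9 genes, Hsd17b4 being the one without. These starts need not be those of the deposited genes. The Acaa1a window lies inside the deposited gene, which begins at chr9:119339676. The Eci2 window (chr13:34994095-34994394) likewise lies inside its gene, which begins at chr13:35027096 on the minus strand. Capitals mark CCAAT, or ATTGG where the motif lies on the opposite strand, and each sequence is written 5′ to 3′ on the strand of its gene. The windows are chr5:8997097-8997396 (minus strand) for Crot, chr16:21787785-21788084 (minus) for Ehhadh, chr9:119341044-119341343 (plus) for Acaa1a and chr9:119157044-119157343 (minus) for Acaa1b.
Crot: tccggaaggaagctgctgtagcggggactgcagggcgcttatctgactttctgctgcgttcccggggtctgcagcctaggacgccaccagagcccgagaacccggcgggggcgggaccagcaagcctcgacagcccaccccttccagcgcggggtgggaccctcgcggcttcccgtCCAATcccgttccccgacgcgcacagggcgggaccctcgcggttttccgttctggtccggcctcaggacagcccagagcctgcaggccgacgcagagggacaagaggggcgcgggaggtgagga
Ehhadh: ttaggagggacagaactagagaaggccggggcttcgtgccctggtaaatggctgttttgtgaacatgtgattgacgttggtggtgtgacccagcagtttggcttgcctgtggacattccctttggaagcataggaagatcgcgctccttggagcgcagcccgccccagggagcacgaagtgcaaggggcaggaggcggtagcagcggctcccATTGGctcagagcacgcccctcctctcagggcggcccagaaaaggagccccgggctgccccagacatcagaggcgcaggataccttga
Acaa1a: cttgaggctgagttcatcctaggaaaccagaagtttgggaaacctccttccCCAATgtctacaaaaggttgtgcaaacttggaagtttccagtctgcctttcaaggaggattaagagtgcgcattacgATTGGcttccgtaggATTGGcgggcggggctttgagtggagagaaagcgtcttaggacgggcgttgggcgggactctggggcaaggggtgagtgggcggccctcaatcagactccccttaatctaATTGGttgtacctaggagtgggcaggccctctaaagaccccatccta
Acaa1b: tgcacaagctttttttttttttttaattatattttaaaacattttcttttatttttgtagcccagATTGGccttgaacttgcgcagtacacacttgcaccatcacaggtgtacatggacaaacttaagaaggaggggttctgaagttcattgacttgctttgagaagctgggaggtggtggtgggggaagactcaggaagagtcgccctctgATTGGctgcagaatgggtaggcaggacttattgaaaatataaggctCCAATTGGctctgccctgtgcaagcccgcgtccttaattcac
Both strands were searched for 4 motifs. Acaa1a and Acaa1b each held 4 matches of CCAAT, and 1.06% of all 32851 promoters of that length held at least 4, whereas 37.4% held the motif at least once. Counted from the start as 0, the first bases of the matches lay at -199, -122, -107 and 3 in Acaa1a and at -185, -38, 8 and 11 in Acaa1b, the last pair overlapping. The longest run of bases that the Acaa1a and Acaa1b windows shared was 8. Single matches stood at -74 in Crot and at -38 in Ehhadh. Eci2 and 1 of the Acox2 windows also held 1 match each. A direct repeat of the type PPAR alpha binds, spelled AGGNCANAGGNCA, was in 0.381% of all promoters, its single copy AGGTCA in 16.3%, and the forkhead core GTAAACA in 3.65%. None of these 3 spellings was in a window of the 8 genes, which says only that the letters were not there.

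Library totals ranged from 17520058 to 22414976 counts, and no member had fewer than 2549 counts in any library. Gene-level Foxo3 was not lower in the libraries labelled knockout. Averaged over feeding states, it was higher there by 1.27-fold, short of the threshold (log2 0.345, SE 0.0658, unadjusted p = 0.000162, adjusted p = 0.247, edgeR). By p it ranked 9 of 15862 tested genes. It stood at 15.6, 17.5 and 16.6 TPM (transcript abundance scaled for gene length and library size) in fasted knockout livers, against 15.2, 11.9 and 12.8 TPM in fasted controls. In fed livers it stood at 18.5, 19.5 and 20.2 TPM in knockouts, against 14.4, 13.6 and 19.2 TPM in controls. The floxed exons are not named in the labels, and exons outside the deletion still add reads to a gene-level value. The cause of the higher values was not tested. The genotype is therefore unchecked here, and knockout below means the libraries labelled so. The first principal component (25.3% of the variance) separated all fasted libraries (-40.7 to -9.01) from all fed libraries (7.73 to 45), and along the second (17%) fed control replicate 3 stood alone, with a score of 52.2 where the other libraries had -27.5 to 20.3. The calls among the 9 genes and the called ratios that use that library are also given without it. Hepatocyte markers (9 of 10 found) summed to 66900 to 118700 CPM (counts scaled for library size only) over all libraries, with Alb alone at 43100 to 90100 CPM. No label names a day, cage or cohort, so these cannot be told apart from genotype or feeding, and in whole liver fewer cells of a type and less RNA per cell cannot be told apart.

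Fasting raised most of the set. With both genotypes averaged, 6 of the 9 genes were higher in fasted livers and 0 were lower (quasi-likelihood test of edgeR, adjusted p under 0.05 over 15862 genes), against 4.55% of all tested genes called higher. They were Crot, Ehhadh, Hsd17b4, Acaa1a, Decr2 and Eci2, and their increases spanned a factor of 1.43 for Hsd17b4 to 2.63 for Ehhadh. Abcd3, Acox2 and Acaa1b did not pass. The estimate of Acaa1b (log2 0.57, SE 0.191, adjusted p = 0.0867, edgeR) was larger than that of Hsd17b4 (0.52). Of 9 alternative fits, 1 called Acaa1b (adjusted p = 0.0236), and leaving out a library brought its adjusted p as low as 0.0375 (edgeR). The median log2 change of the 9 genes was 0.63, beside -0.009 for all tested genes. The same 6 calls stood in every alternative fit and with any 1 library left out. Within genotypes, 6 genes passed in knockout livers (1.36% of all genes called higher) and 5 in control livers (2.05%). Summed over the 9 genes, fasted livers held 5118, 3426 and 4438 TPM in knockouts and 4877, 5247 and 5074 TPM in controls. Fed livers held 1787, 2479 and 2563 TPM in knockouts and 3919, 2911 and 4842 TPM in controls. The sums of fasted knockout livers thus lay above all those of fed knockout livers, and the sums of fasted controls lay above those of fed controls by a margin that was narrow for replicate 3, most of whose sum was Acaa1b.

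**Figure D1:**
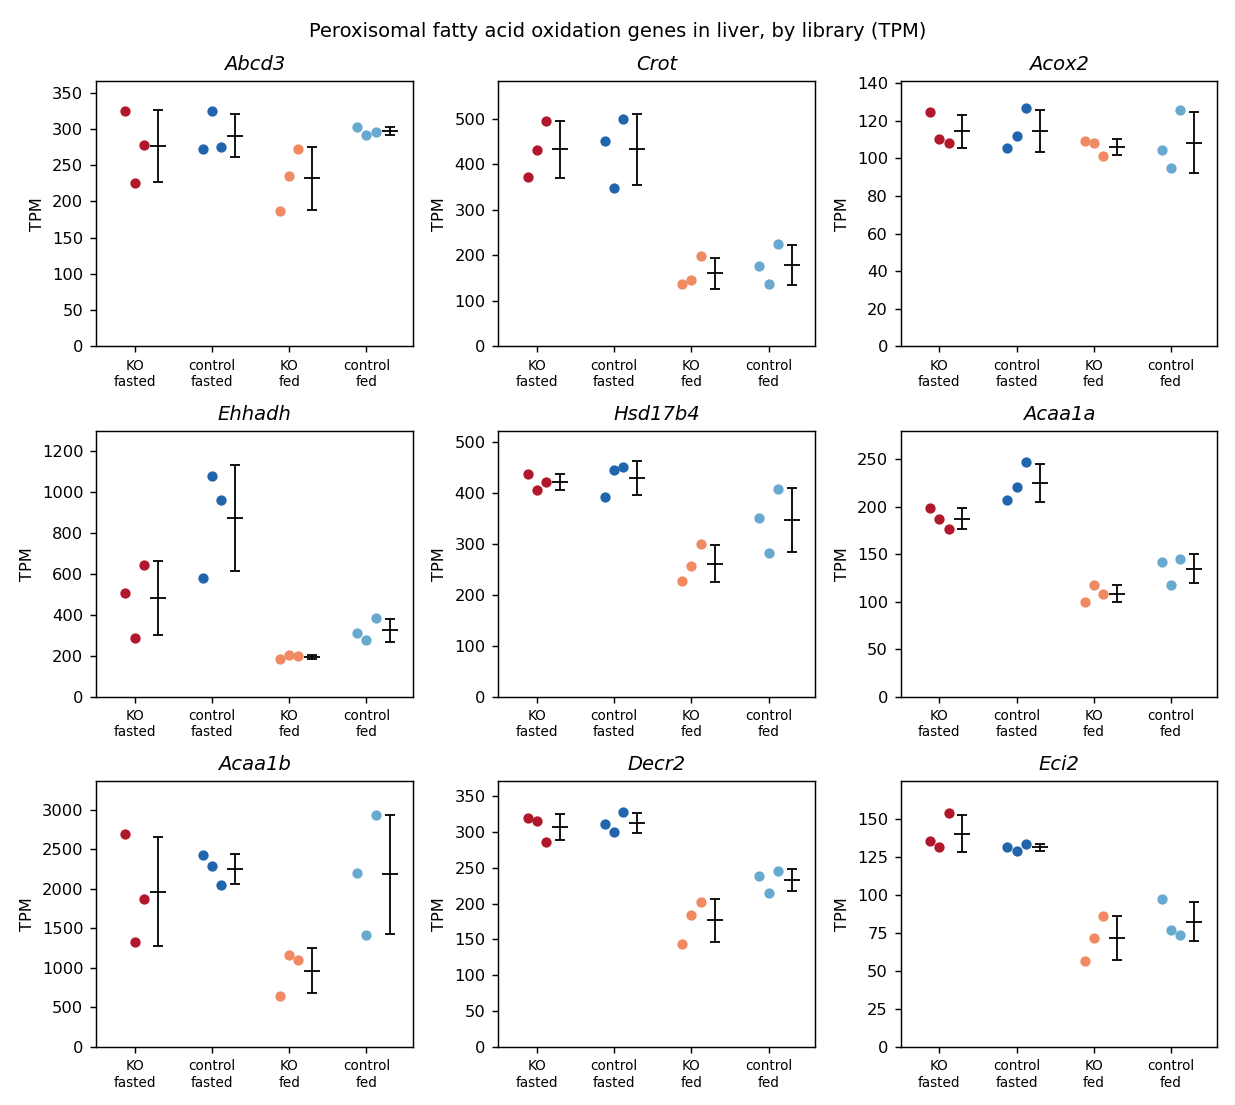
TPM of each of the 9 genes in every library (points), by group, with the mean and SD of 3 libraries beside them. Crot, Acaa1a, Decr2 and Eci2 were higher in every fasted library than in every fed one, while Abcd3, Acox2, Ehhadh, Hsd17b4 and Acaa1b overlapped between the feeding states.

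Abcd3, the membrane transporter PMP70, brings branched-chain and dicarboxylic acyl-CoAs and bile acid intermediates into the peroxisome (ENSMUSG00000028127, chr3:121758774-121815302, minus strand). It had 325, 226 and 278 TPM in fasted knockout and 273, 324 and 275 TPM in fasted control livers, against 187, 236 and 273 TPM in fed knockout and 303, 291 and 296 TPM in fed control livers. Fasted and fed libraries overlapped in both genotypes, and fed knockout livers had the lowest mean. The log2 change with fasting was 0.25 in knockouts (SE 0.18, adjusted p = 0.588) and 0.01 in controls (SE 0.179, adjusted p = 0.985, edgeR).

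Crot transfers medium-chain acyl groups to carnitine, the form in which shortened chains leave the peroxisome (ENSMUSG00000003623, chr5:8966033-8997324, minus strand). Its level was 372, 431 and 496 TPM in fasted knockout livers and 452, 348 and 500 TPM in fasted control livers, against 137, 146 and 199 TPM in fed knockout and 178, 136 and 225 TPM in fed control livers. Every fasted library lay above every fed one, and knockout and control overlapped in both feeding states. The increase was 2.69-fold in knockouts (log2 1.43, SE 0.185, adjusted p = 0.00255) and 2.49-fold in controls (log2 1.32, SE 0.184, adjusted p = 0.00245, edgeR). Crot kept its call in both genotypes in every alternative fit and without any 1 library.

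Acox2, the oxidase that acts on the branched side chains of bile acid intermediates, varied least of the 9 genes (ENSMUSG00000021751, chr14:8225511-8259353, minus strand). Fasted livers had 124, 110 and 108 TPM in knockouts and 105, 112 and 127 TPM in controls. Fed livers had 109, 108 and 101 TPM in knockouts and 105, 94.7 and 126 TPM in controls. All 4 groups overlapped, and the log2 change with fasting was 0.09 in knockouts (SE 0.104, adjusted p = 0.757) and 0.13 in controls (SE 0.104, adjusted p = 0.551).

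Ehhadh, the L-bifunctional enzyme, carries hydratase and dehydrogenase steps and is needed in mice to break down dicarboxylic acids (ENSMUSG00000022853, chr16:21761287-21787807, minus strand). It had 509, 287 and 646 TPM in fasted knockout livers and 580, 1079 and 961 TPM in fasted controls, against 185, 203 and 199 TPM in fed knockout and 310, 277 and 387 TPM in fed control livers. The fed libraries were tight and the fasted ones wide, and the lowest fasted knockout liver fell within the range of the fed controls. Fasting gave 2.45-fold in knockouts (log2 1.29, SE 0.296, adjusted p = 0.0436) and 2.82-fold in controls (log2 1.497, SE 0.297, adjusted p = 0.0168, edgeR). In controls Ehhadh lost its call without fasted control replicate 2 or 3 or without any 1 of the fed controls (adjusted p 0.0557 to 0.0653). In knockouts it lost it without fasted knockout replicate 1 or 3, fasted control replicate 3 or any 1 of the fed libraries (0.0566 to 0.174). Among the alternative fits, Ehhadh also lost its call in 6 of 10 in knockouts (adjusted p up to 0.134) and in 2 of 10 in controls (up to 0.0611).

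Hsd17b4, the D-bifunctional enzyme, does the same steps with the opposite stereochemistry and serves very long, branched and bile acid substrates (ENSMUSG00000024507, chr18:50128201-50196269, plus strand). Its values were 437, 406 and 421 TPM in fasted knockout and 391, 445 and 451 TPM in fasted control livers, against 227, 257 and 300 TPM in fed knockout and 351, 283 and 408 TPM in fed control livers. Fasted libraries of both genotypes shared a narrow range, and knockout libraries separated fully by feeding. Control libraries overlapped in TPM but not in CPM, at 515, 673 and 603 CPM fasted and 499, 415 and 481 CPM fed. The log2 change was 0.68 in knockouts (SE 0.137, adjusted p = 0.022) and 0.36 in controls, which did not pass (SE 0.137, adjusted p = 0.167). The change did not differ between genotypes past the threshold (interaction 0.32, SE 0.193, adjusted p = 0.785). In knockouts Hsd17b4 lost its call without fasted knockout replicate 1 or 3 or fed knockout replicate 1 or 2 (0.0671 to 0.123), and in 1 of 10 alternative fits (0.0619).

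Acaa1a and Acaa1b encode the peroxisomal thiolases, which cleave the last intermediate of each cycle. Both lie on chromosome 9, Acaa1a at chr9:119339676-119350299 on the plus strand (ENSMUSG00000036138) and Acaa1b at chr9:119148023-119157093 on the minus strand (ENSMUSG00000010651). Their coding sequences, of 1275 bases each, were 96.5% identical (1231 bases), and 34.0% of all 50-base windows of the Acaa1a transcript also occurred in Acaa1b. How reads that match both were counted is not given in the sources used here, so the split between the genes is uncertain. Acaa1a also shares 290 exonic bases with Myd88 on the opposite strand, and Acaa1b 224 with Dlec1. The library kit keeps the strand, but the strand setting of the counting is likewise not given.

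Acaa1a had 198, 187 and 177 TPM in fasted knockout and 208, 221 and 247 TPM in fasted control livers, against 99.6, 117 and 108 TPM in fed knockout and 142, 117 and 145 TPM in fed control livers. All fasted libraries were above all fed ones, and fasted knockouts were all below fasted controls. Fasting changed it 1.72-fold in knockouts (log2 0.78, SE 0.115, adjusted p = 0.00453) and 1.72-fold in controls (log2 0.78, SE 0.115, adjusted p = 0.00334, edgeR), and this held in every alternative and without any 1 library. Acaa1b, the most abundant of the 9 genes per length, had 2697, 1332 and 1871 TPM in fasted knockout and 2427, 2290 and 2052 TPM in fasted control livers, against 643, 1157 and 1095 TPM in fed knockout and 2197, 1420 and 2936 TPM in fed control livers. Fed knockout livers stood below the 3 other groups, although the lowest fasted knockout exceeded the highest fed knockout by little. Its log2 change with fasting was 1.02 in knockouts (SE 0.272, adjusted p = 0.0747) and 0.12 in controls (SE 0.269, adjusted p = 0.861), so it passed in neither. Without fasted knockout replicate 2 Acaa1b passed in knockouts (log2 1.24, adjusted p = 0.0389), and it also passed there by DESeq2 (adjusted p = 0.00364).

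Decr2, the peroxisomal dienoyl-CoA reductase, prepares polyunsaturated chains for the cycle (ENSMUSG00000036775, chr17:26081208-26090337, minus strand). It had 320, 316 and 287 TPM in fasted knockout and 311, 300 and 328 TPM in fasted control livers, against 144, 184 and 202 TPM in fed knockout and 238, 216 and 245 TPM in fed control livers. Fasted libraries of both genotypes stood together above all fed ones, and fed knockouts were all below fed controls. The log2 change was 0.79 in knockouts (SE 0.12, adjusted p = 0.00532) and 0.46 in controls (SE 0.119, adjusted p = 0.0485, edgeR). The call of Decr2 in controls lay at the threshold and was lost in 8 of 10 alternatives and without any 1 library except fed knockout replicate 1 (adjusted p 0.0517 to 0.147), while the call in knockouts held throughout.

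Eci2, the peroxisomal enoyl-CoA isomerase, moves double bonds to where the hydratase can act (ENSMUSG00000021417, chr13:34977748-35027096, minus strand). Fasted livers had 135, 131 and 154 TPM in knockouts and 131, 129 and 134 TPM in controls, against 56.6, 71.5 and 85.9 TPM in fed knockouts and 97.0, 76.7 and 73.2 TPM in fed controls. No fasted library overlapped a fed one, and the genotypes overlapped in both states. Fasting gave 1.96-fold in knockouts (log2 0.97, SE 0.176, adjusted p = 0.0137) and 1.62-fold in controls (log2 0.69, SE 0.175, adjusted p = 0.0434, edgeR). Eci2 lost its call in knockouts without fasted knockout replicate 3 or fed knockout replicate 1 or 2 (0.0569 to 0.0795). In controls Eci2 lost it without fasted knockout replicate 1 or 2, any 1 of the fasted controls, fed knockout replicate 2 or fed control replicate 2 or 3 (0.0561 to 0.136), and in 3 of 10 alternative fits (up to 0.111). Eci2 shares 189 exonic bases with the antisense gene Gm16984, so its level carries the same doubt about strand.

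**Figure D2:**
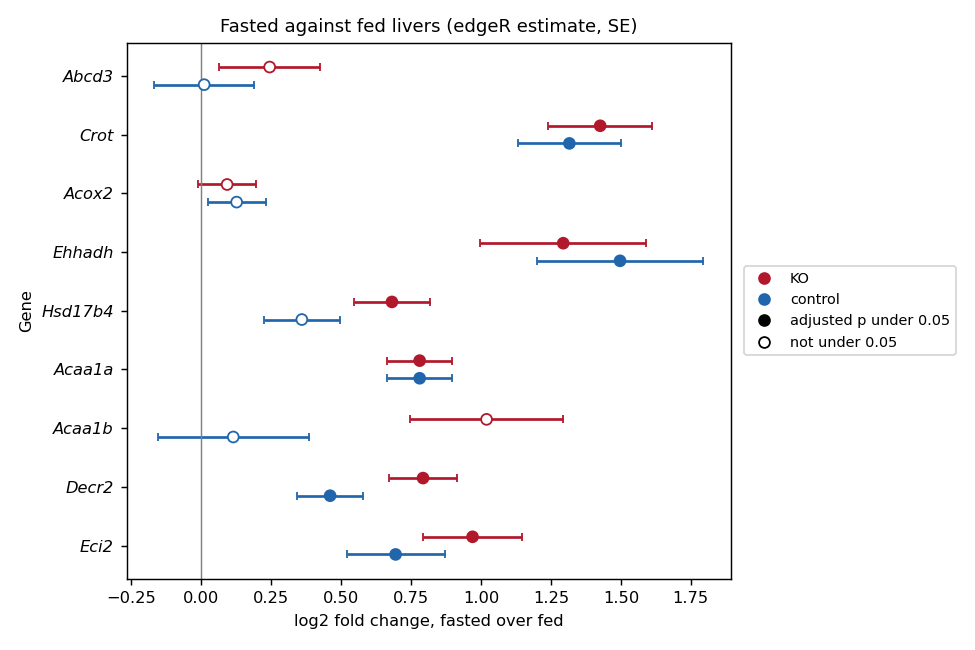
Log2 fold change of fasted over fed livers for each gene, with SE, in knockout and control mice; filled points have an adjusted p under 0.05 over all tested genes. Crot, Ehhadh, Acaa1a, Decr2 and Eci2 are filled in both genotypes and Hsd17b4 in knockouts.

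In TPM, Crot, Acaa1a, Decr2 and Eci2, 4 of the 9 genes, were higher in every fasted library than in any fed one, as were 2.19% of all tested genes. In CPM Hsd17b4 separated too, with 515 CPM in its lowest fasted and 499 CPM in its highest fed library. Without fed control replicate 3, the control comparison called Crot (log2 1.39, adjusted p = 0.00381) and Acaa1a (0.73, adjusted p = 0.00748), and 2 members in all. Ehhadh then stood at 1.53 (adjusted p = 0.0557), Decr2 at 0.40 (0.12), Eci2 at 0.53 (0.101) and Abcd3 at -0.09 (0.869). Averaged over genotypes, the same 6 members were called without that library. The marker lists of other cell types differed between groups in places. Markers of B and plasma cells (6 of 6 found) summed to 23.7 to 36.1 CPM in fasted knockout and 49.8 to 267 CPM in fasted control livers, against 90.1 to 92.8 CPM in fed knockout and 72.8 to 219 CPM in fed control livers, and their part in the fasting differences was not tested. Stellate cell and fibroblast markers (9 of 9 found) summed to 213 to 307 CPM in fasted and 327 to 757 CPM in fed controls, the highest being fed control replicate 3, and to 175 to 397 CPM in fasted and 218 to 348 CPM in fed knockouts; their part was not tested. Of the 5 adipocyte markers, Lep was at 0 in every library, Adipoq reached at most 0.226 CPM, Plin1 0.0422 CPM and Retn 0.38 CPM. The remaining one, the lipid droplet gene Cidec, made up nearly all of that list's sum, which was 52.9 to 106 CPM in fasted and 19.0 to 45.7 CPM in fed knockouts and 36.8 to 62.4 CPM in fasted and 45.9 to 105 CPM in fed controls.

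Genotype was compared within each feeding state. In fed livers 0 of the 9 genes passed between knockout and control, where 0% of the 15862 tested genes did (at an unadjusted p under 0.05 there were 970, and by DESeq2 33). Of the 9 genes, 8 had a negative estimate in fed livers with a median log2 difference of -0.32, beside -0.01 for all tested genes, and 5 had an unadjusted p under 0.05. In TPM, fed knockout libraries lay wholly below fed control libraries for Abcd3, Ehhadh, Acaa1b and Decr2, which 6.22% of all tested genes did. In CPM Abcd3 overlapped, with 730 CPM in fed knockout replicate 3 and 677 CPM in fed control replicate 3. Acaa1b had the largest difference, with a mean of 965 TPM in fed knockout and 2185 TPM in fed control livers (log2 -1.11, SE 0.272, adjusted p = 0.68 by edgeR), and was the member that DESeq2 called (-1.11, adjusted p = 0.00985). Over the 10 alternatives its adjusted p ranged from 0.00985 to 0.953, and without fed control replicate 3 the Acaa1b difference was -0.97 (adjusted p = 0.943, edgeR). Ehhadh averaged 196 TPM in fed knockout and 324 TPM in fed control livers (log2 -0.67, SE 0.293, adjusted p = 0.806), and Decr2 177 and 233 TPM (log2 -0.36, SE 0.119, adjusted p = 0.795). Hsd17b4 (-0.35, adjusted p = 0.806) and Acaa1a (-0.27, adjusted p = 0.806) did not pass either, and their libraries overlapped in TPM. In CPM those of Acaa1a did not, with 207 CPM in the highest fed knockout and 222 CPM in the lowest fed control.

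In fasted livers 0 of the 9 genes passed, where 0.0315% of all tested genes did (at an unadjusted p under 0.05 there were 1429, and by DESeq2 42). Log2 differences ran from -0.87 to 0.10. Ehhadh averaged 481 ± 181 TPM in fasted knockout and 873 ± 260 TPM in fasted control livers (SD, n = 3 each), with a log2 difference of -0.87 (SE 0.293, adjusted p = 0.521, edgeR). Acaa1a averaged 187 ± 10.8 TPM in fasted knockout and 225 ± 19.9 TPM in fasted control livers (log2 -0.27, SE 0.114, adjusted p = 0.527). Acaa1a was the member whose fasted knockout libraries all lay below the fasted controls, as did 6.31% of all tested genes. Crot, Acox2, Hsd17b4, Decr2, Eci2 and Abcd3 had estimates between -0.09 and 0.10 in fasted livers, and Acaa1b stood at -0.21 (adjusted p = 0.849). Averaged over feeding states 0 members passed by edgeR, where 0.0126% of all genes did (1255 at an unadjusted p under 0.05, DESeq2 46), and Ehhadh passed by DESeq2 (log2 -0.77 by edgeR, adjusted p = 0.483, and -0.77 by DESeq2, adjusted p = 0.0476). The range of adjusted p for Ehhadh over its alternatives was 0.0476 to 0.813. Markers of T and NK cells (7 of 7 found) summed to 2.07 to 4.33 CPM in fasted knockout and 5.93 to 8.65 CPM in fasted control livers, and to 2.47 to 5.65 CPM in fed knockout and 2.33 to 13.5 CPM in fed control livers. No marker of the T and NK cell list exceeded 3 CPM. The B and plasma cell sums given above also separated the genotypes in fasted livers, with 267 CPM in fasted control replicate 3 alone and 49.8 and 55.6 CPM in the others. Of these markers Jchain and Ighm each reached 199 CPM, and no other exceeded 4.94 CPM. The part of either list in the genotype differences was not tested.

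**Figure D3:**
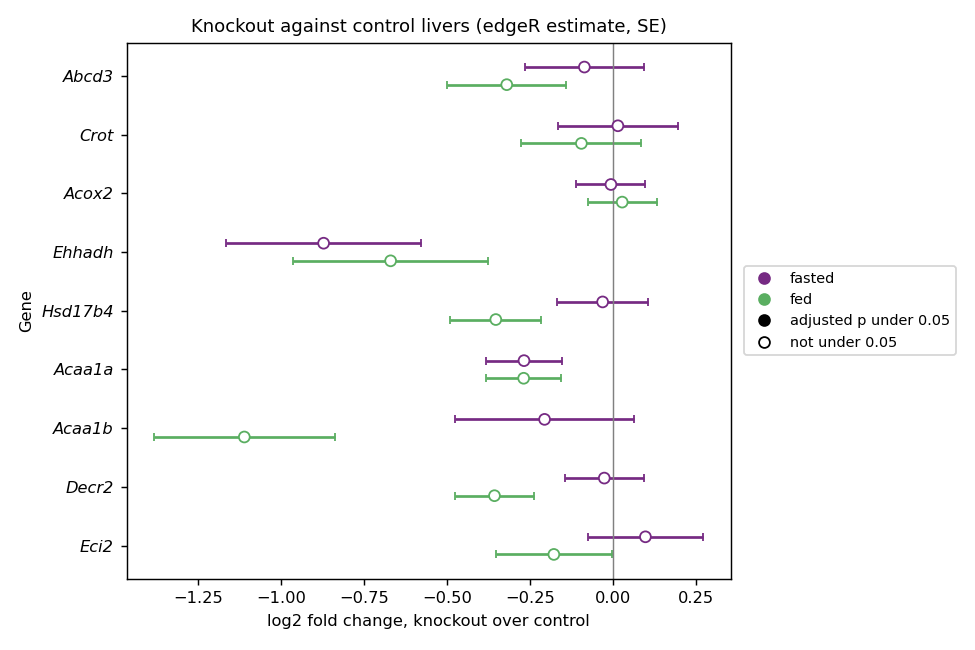
Log2 difference of knockout over control livers for each gene, with SE, in fasted and in fed mice; open points did not pass an adjusted p of 0.05, and all are open. In fed livers 8 of the 9 estimates are negative, and in fasted livers Ehhadh and Acaa1a lie farthest below 0.

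The interaction asks whether the fasting change differed between genotypes. None of the 9 genes passed, where 0.0063% of all tested genes did (at an unadjusted p under 0.05 there were 1141, and by DESeq2 60). A positive estimate means a larger fasting change in knockouts. Estimates ran from -0.20 for Ehhadh to 0.91 for Acaa1b, and 7 of 9 were positive, as were 7824 of all 15862 tested genes. Among the 7, Acaa1a stood at 0.001 (SE 0.161), and Crot (0.11, SE 0.256) and Abcd3 (0.23, SE 0.254) lay within 1 SE of 0. Acaa1b had the smallest p (log2 0.91, SE 0.381, unadjusted p = 0.0343, adjusted p = 0.667, edgeR), and without fed control replicate 3 its estimate was 0.76 (adjusted p = 0.691). Decr2 followed with 0.33 (SE 0.169, adjusted p = 0.722). The fed knockout libraries enter both the fasting change in knockouts and the genotype difference in fed livers, so the low fed knockout values of Acaa1b and Decr2 appear in both comparisons and are not 2 observations.

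Ratios of TPM within a library set each peroxisomal enzyme beside a partner of like function, mostly its mitochondrial counterpart, and were tested by exact two-sided permutation within the other factor (400 arrangements, smallest possible p 0.005), adjusted over 14 tests. Ehhadh stood at 1.16, 0.706 and 1.53 times Hsd17b4 in fasted knockouts and at 1.48, 2.42 and 2.13 times in fasted controls. In fed livers the ratio was 0.816, 0.792 and 0.663 in knockouts and 0.883, 0.979 and 0.949 in controls. The L-bifunctional gene thus outweighed the D-bifunctional gene in all fasted libraries except knockout replicate 2, and was below it in every fed library. The log2 ratio was 0.80 higher in fasted than in fed livers (exact p = 0.015, adjusted p = 0.035) and 0.59 lower in knockouts than in controls (difference -0.59, exact p = 0.01, adjusted p = 0.035). Hadha is the mitochondrial trifunctional subunit with the same steps. Against it, Ehhadh gave a fasting difference of 0.62 that did not get under the threshold (exact p = 0.025, adjusted p = 0.05). The genotype difference of this ratio was -0.60 (exact p = 0.01, adjusted p = 0.035). Both ratios use the same Ehhadh values, so their genotype differences are not independent results. The adjustment covered only the 14 ratio tests, and members were chosen with earlier results of these data known. Ehhadh itself, averaged over feeding states, did not pass between genotypes when adjusted over all tested genes (log2 -0.77, adjusted p = 0.483, edgeR). Knockout and control ratios to Hadha did not overlap in fed livers, at 2.64, 2.72 and 2.55 in knockouts and 3.39, 3.53 and 3.81 in controls, while fasted ones did.

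Acaa1a relative to Acaa2, the mitochondrial thiolase, was 0.133, 0.129 and 0.115 in fasted knockout and 0.139, 0.144 and 0.169 in fasted control livers, against 0.0884, 0.0936 and 0.0883 in fed knockout and 0.102, 0.0892 and 0.12 in fed control livers. Its log2 ratio was 0.51 higher in fasted livers (exact p = 0.005, adjusted p = 0.035). Between knockout and control the log2 ratio differed by -0.23 (exact p = 0.015, adjusted p = 0.035). Acaa1a itself, averaged over feeding states, did not pass between genotypes when adjusted over all tested genes (log2 -0.27, adjusted p = 0.522, edgeR). Crot relative to Cpt2, the mitochondrial carnitine palmitoyltransferase, ran from 1.48 to 2.37 in fasted and from 1.25 to 1.67 in fed livers, a log2 difference of 0.49 (exact p = 0.015, adjusted p = 0.035), with no called genotype difference (0.06, adjusted p = 0.7). Relative to their mitochondrial counterparts, Decr2 and Eci2 had no called change. Decr2 over Decr1 was 1.59 to 1.9 in fasted and 1.65 to 1.99 in fed livers (log2 difference -0.09, exact p = 0.155, adjusted p = 0.217). Eci2 over Eci1 was 0.514 to 0.868 in fasted and 0.42 to 0.744 in fed livers (0.10, exact p = 0.47, adjusted p = 0.548). Acaa1b over Acaa1a was 7.12 to 13.6 in fasted and 6.45 to 20.2 in fed livers (-0.21, exact p = 0.435, adjusted p = 0.548), and for knockout against control it differed by -0.42 (exact p = 0.125, adjusted p = 0.194). Leaving out 1 library, which leaves fewer arrangements, ended a call for 6 to 10 of the 12 libraries in each called ratio without a change of direction. Without fed control replicate 3 all 6 called ratio differences lost their call. Ehhadh to Hsd17b4 then differed by 0.80 for fasting (adjusted p = 0.07, exact permutation) and -0.58 for genotype (0.0525), and Ehhadh to Hadha by -0.57 for genotype (0.0525). Acaa1a to Acaa2 differed by 0.57 for fasting (0.0525) and -0.17 for genotype (0.07), and Crot to Cpt2 by 0.54 for fasting (0.0525).

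**Figure D4:**
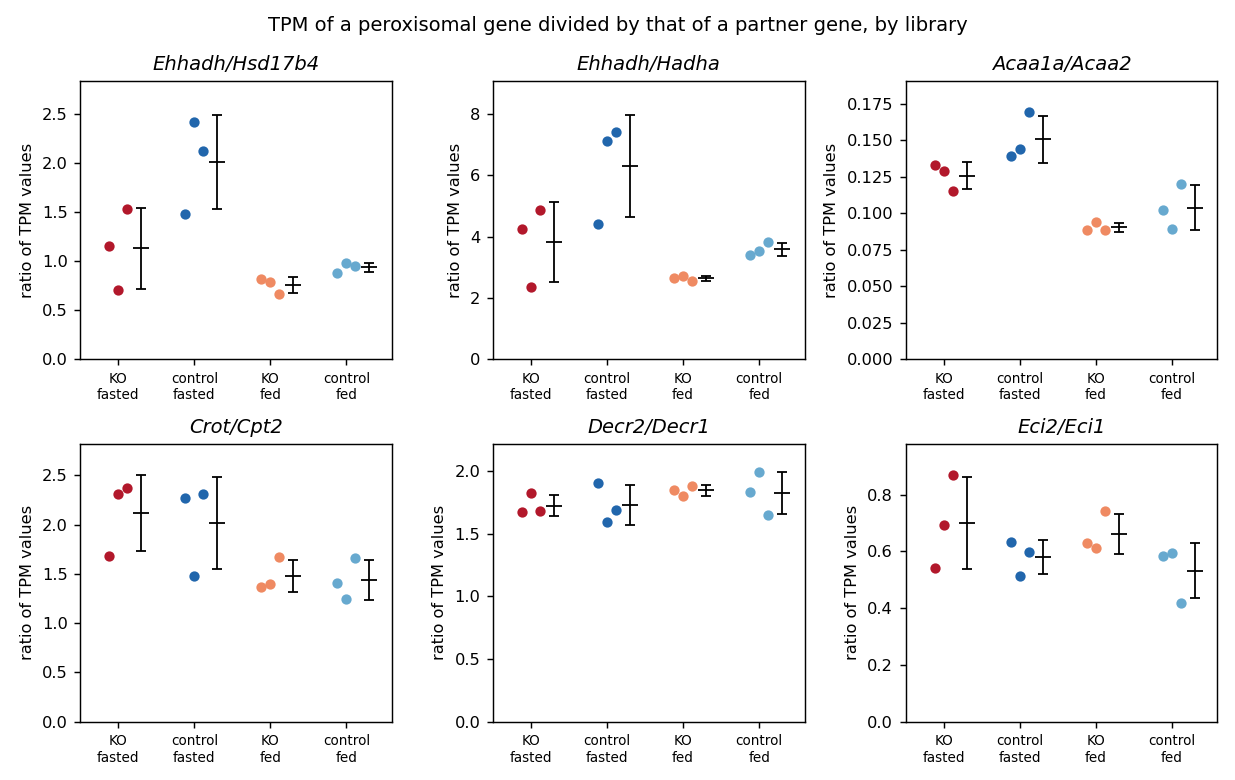
TPM of a peroxisomal gene divided by that of its partner in each library (points), with mean and SD of 3 libraries, by group. Ehhadh over Hsd17b4 reached 2.42 in fasted controls and stayed at or below 0.979 in all fed livers, while Decr2 over Decr1 kept to 1.59 to 1.99 throughout.

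Other genes of the organelle were less uniform. With fasting averaged over genotypes, 721 (4.55%) of all 15862 tested genes were called higher and 717 lower. Of 17 further genes of peroxisomal fatty acid handling, 6 rose and 1 fell with fasting averaged over genotypes, with a median log2 change of 0.29. Ech1, an isomerase of dienoyl chains, rose (460 TPM fasted, 233 TPM fed, log2 1.02, adjusted p = 9.7e-05), as did the very long-chain acyl-CoA synthetase Slc27a2 (1207 and 685 TPM, 0.83, adjusted p = 0.000529) and the thioesterase Acot8 (25.8 and 15.1 TPM, 0.77, adjusted p = 0.00102). Nudt7, a hydrolase that degrades coenzyme A, fell to 65.9 TPM in fasted livers, against 197 TPM in fed livers (log2 -1.59, adjusted p = 0.001). Of 16 peroxins, which build and divide peroxisomes, 4 rose and 0 fell, with a median of 0.19. Pex19, an import receptor for membrane proteins, rose by 0.41 (adjusted p = 0.0051) and Pex11a, a division factor, by 0.90 (adjusted p = 0.0157). In knockouts Pex11a averaged 143 TPM fasted and 54.0 TPM fed (log2 1.40, adjusted p = 0.0265). No peroxin passed in controls by edgeR, where 6 had an unadjusted p under 0.05, as did 3080 of all 15862 tested genes. The fasting change of Pex11a did not differ between genotypes past the threshold (interaction 1.012, adjusted p = 0.631). Of 22 tested genes of other peroxisomal pathways, 8 rose and 3 fell. Hsdl2 rose (1.14, adjusted p = 0.000618), as did the epoxide hydrolase Ephx2 (0.79, adjusted p = 0.000953), while the polyamine oxidase Paox fell to 13.0 TPM in fasted livers, against 30.7 TPM in fed livers (-1.24, adjusted p = 0.000158).

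Mitochondrial fatty acid oxidation and genes of the PPAR alpha axis also rose in large part with fasting, where 4.55% of all tested genes were called higher. Of 17 mitochondrial genes 14 rose and 0 fell, with a median of 0.70, among them the entry enzyme Cpt1a (297 TPM fasted, 153 TPM fed, log2 0.98, adjusted p = 4.9e-05) and the trifunctional subunit Hadhb (87.7 and 47.9 TPM, 0.90, adjusted p = 5.34e-05). Of 19 genes of the PPAR alpha axis 12 rose and 0 fell, with a median of 1.24. The omega-hydroxylase Cyp4a14, whose family makes the dicarboxylic acids that peroxisomes shorten, averaged 2879 TPM in fasted and 246 TPM in fed livers (3.98, adjusted p = 0.000263). Ppara itself passed in knockouts (136 TPM fasted, 91.8 TPM fed, 0.56, adjusted p = 0.0361) and not in controls (101 and 104 TPM, -0.01, adjusted p = 0.971), and its interaction did not pass (0.57, adjusted p = 0.556). In fed livers 0 genes of these lists passed between genotypes, where 0% of all 15862 tested genes did and 8248 had a negative estimate. All 17 mitochondrial estimates were negative there with a median of -0.23, and 17 of 19 estimates of the PPAR alpha axis were, with a median of -0.92. Cyp4a14 averaged 73.0 TPM in fed knockout and 420 TPM in fed control livers (log2 -2.49, unadjusted p = 0.000674, adjusted p = 0.636).

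**Figure D5:**
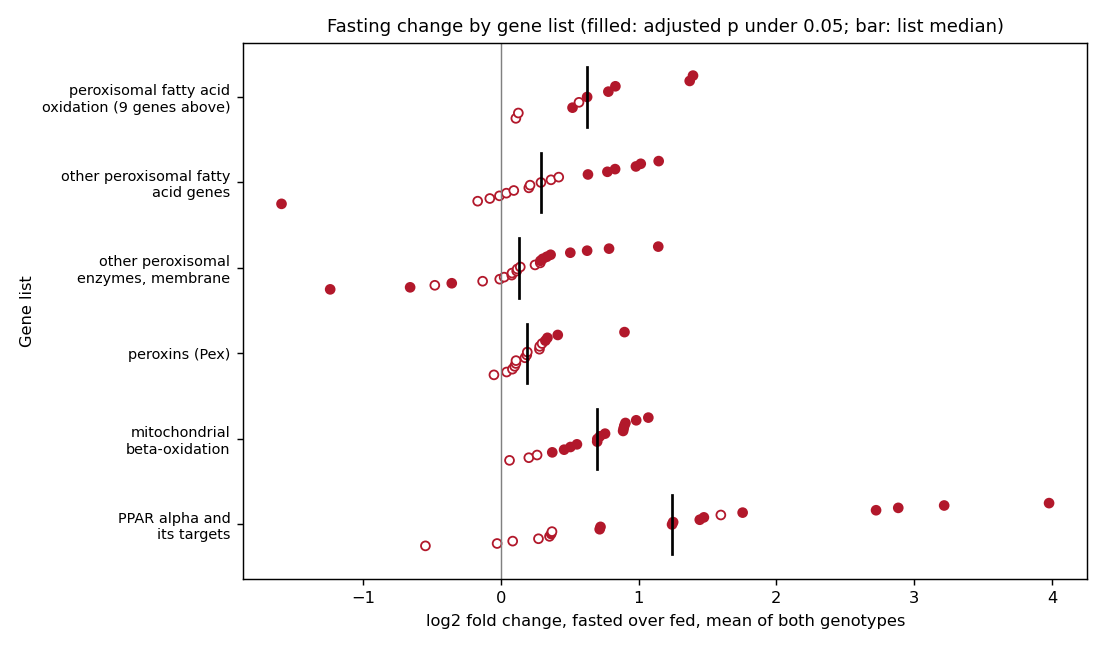
Log2 change of fasted over fed livers, averaged over genotypes, for each gene (points) of 6 lists; filled points passed an adjusted p of 0.05 and bars are list medians. The 9 genes have a median of 0.63, between peroxins at 0.19 and the PPAR alpha axis at 1.24.

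The profile over 12 libraries of each member was matched to 10092 other tested genes of at least 5 CPM by the root mean square difference of centred log2 CPM, a description in which all profiles share the same libraries. Nearest to Acaa1a were the mitochondrial dehydrogenase Acadm (0.0927) and Hadhb (0.11). Decr2 stood nearest to its mitochondrial counterpart Decr1 (0.094) and to Acadl (0.103), and Hsd17b4 to Acsf2 (0.0914) and Acad11 (0.0982), all genes of fatty acid metabolism. Crot was nearest to the carnitine transporter Slc22a5 (0.204) and to Slc4a4 (0.215), and Ehhadh to Cyp4a32 (0.30) and Mfsd2a (0.356). Crot and Ehhadh were also the members that varied most, by 0.714 and 0.842 log2 units around the mean. Acaa1b was nearest to Dlec1 (0.0696) and Eci2 to Gm16984 (0.0535), the genes that overlap them on the opposite strand, and these matches cannot be told apart from shared reads. Next came Aldh3a2 (0.279) for Acaa1b and Mmd (0.126) for Eci2. Abcd3 lay nearest to Pank1 (0.114) and Akip1 (0.125). Acox2, whose profile was the flattest (0.101), lay nearest to Txndc17 (0.0467) and Gps1 (0.0615). Among the members themselves Hsd17b4 and Decr2 were nearest to each other (0.115).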

How the data were processed

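Liver RNA of 12 mice was sequenced. Per the labels' protocols, the kit selects poly(A) RNA and keeps the strand. The submitters' processing notes list featureCounts 1.6.3, HISAT2 2.1.0, DESeq2 1.24.0, Trimmomatic 0.38 and bcl2fastq 2.19 with build mm10. The sources used here do not give their roles, the annotation release, the strand setting or the treatment of reads matching several genes. Raw counts and TPM values per gene are used as the authors deposited them. Groups come from the sample titles.

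Counts were tested with edgeR 4.0.16 (R 4.3.3): filterByExpr, TMM factors, robust quasi-likelihood fit of all 12 libraries with 1 mean per group, 2-sided contrasts, Benjamini-Hochberg adjustment over all tested genes, threshold 0.05, no minimum fold. The scripts were tested on simulated data. Ratios used deposited TPM with no pseudocount. Sequences were read with Python 3.11.15 and Biopython 1.88; positions are those of the deposited table. The text names all members, Foxo3, ratio partners, up to 4 genes of smallest p per list and comparison and the 2 nearest profiles. Members and lists were chosen with earlier results of these data known. Alternatives were DESeq2 1.42.0, limma 3.58.1 (voom, or log2 TPM with pseudocounts 1 and 0.1), RLE factors, other filters, only the compared groups, a replicate block and leaving out each library.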

Additional observations from a re-analysis of the deposited data

How the results depend on the processing

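Member counts for fasting averaged over genotypes stayed at 6 to 7 in all alternatives and with each library left out. In controls the count of 5 became 3 with no filter on low counts, 3 with only the compared groups, 3 with the replicate block and 2 with limma on unfiltered log2(TPM + 1), and 2 to 5 with a library left out. In knockouts the count of 6 became 3 to 7 with a library left out. DESeq2 called 1 member between genotypes in fed livers and 1 averaged over feeding states, against 0 by edgeR. Over all genes, DESeq2 called 1188 and 794 with fasting in controls and knockouts, against 657 and 393 by edgeR, and unfiltered log2(TPM + 1) 341 and 200. A fit of only the compared groups gave 312 in controls, the block 232 in knockouts, and leaving out a library 272 to 648 in controls and 88 to 573 in knockouts. The estimate for Abcd3 in controls turned to -0.034 in the 3 fits on log2 TPM and ran from -0.151 to 0.087 with a library left out, and that of Acaa1b in controls from -0.072 to 0.261; neither was called. The cause of these shifts was not tested.

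The replicate numbers did not pair the samples: 18 same-numbered pairs had correlations of -0.28 to 0.18, with 3 over 0.1. With labels swapped only within such pairs (replicate block), the log2 ratio differences were unchanged in size. Ehhadh to Hsd17b4 differed by 0.80 for fasting (adjusted p = 0.146) and -0.59 for genotype (0.109). Ehhadh to Hadha differed by -0.60 for genotype (0.109). Acaa1a to Acaa2 differed by 0.51 for fasting (0.109) and -0.23 for genotype (0.188), and Crot to Cpt2 by 0.49 for fasting (0.109). None passed, but this test has too few arrangements to decide whether the calls hold. An adjusted p under 0.05 would need most of the ratio tests to reach the smallest possible p. No conclusion is drawn from it. With log2(TPM + 1), Ehhadh to Hadha passed for fasting at 0.63 (adjusted p = 0.04). With a library left out, fasting differences ran from 0.67 to 0.95 (Ehhadh to Hsd17b4), 0.52 to 0.78 (Ehhadh to Hadha), 0.46 to 0.57 (Acaa1a to Acaa2) and 0.43 to 0.59 (Crot to Cpt2). Genotype differences ran from -0.72 to -0.44, -0.72 to -0.44, -0.28 to -0.17 and -0.042 to 0.143 for the same ratios, from -0.025 to 0.046 for Decr2 to Decr1 and from 0.20 to 0.37 for Eci2 to Eci1.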
